A study of Mus musculus with 6 samples.

Results

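Neuropeptide precursor genes of the spinal cord were followed in lumbar cord of mouse embryos at stage E15.5. The genes were chosen by name, with earlier results of these data known: Penk, Pdyn, Tac1, Sst, Npy, Gal, Grp, Nts, Cck and Calca. Of these 10 genes, 9 were paired with a row of the deposited table by a single gene symbol, out of 19938 genes that had one. Calca, the gene for calcitonin and calcitonin gene-related peptide, was matched to no row and has no value here. Each of the 9 had 1 row only, so no choice between rows was needed.

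There were 3 samples of Tnc knockout embryonic cord (genotype TNC -/-) and 3 of wild-type cord, all of strain SV129 and untreated, each hybridised to 1 array and called biological replicates in the labels. Which part of Tnc was removed, whether embryos were pooled, and their litters and sex were not stated in the sources used here. Tnc encodes tenascin-C, a glycoprotein of the extracellular matrix. The title of the series names patterning genes during astrocyte specification as its subject. The peptide genes were compared in the same bulk tissue, and which cells gave their signals was not measured.

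A neuropeptide is made as a long precursor that enters the secretory pathway, is cut at pairs of basic residues by prohormone convertases, trimmed by carboxypeptidase E and often amidated at its end. The finished peptide is kept in dense-core vesicles and acts on G protein-coupled receptors, often at a distance from the synapse. In the dorsal horn the peptides mark classes of interneurons that relay or restrain pain, itch and touch: enkephalin, dynorphin, galanin and neuropeptide Y are found largely in inhibitory cells, and substance P, gastrin-releasing peptide, neurotensin and cholecystokinin largely in excitatory ones, with somatostatin mainly in excitatory cells. Sensory neurons of the dorsal root ganglia make several of the same peptides, but their cell bodies lie outside the cord.

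On the log2 scale of the arrays, Tnc read 9.64, 9.76 and 9.47 in the knockout arrays, against 10.72, 10.22 and 10.02 in the wild-type arrays. The groups did not overlap, and the knockout mean was 61.8% of the wild-type mean on the linear scale (log2 difference -0.69, 95% confidence interval from -1.09 to -0.30, limma unadjusted p = 0.00380, adjusted p over all genes = 1). The arrays agreed closely, with correlations of 0.9927 or more between replicates. A single component nevertheless held 49.0% of the variance between arrays, and wild-type replicates 1 and 3 stood at its ends with scores of 18.46 and -22.84, against -9.48 to 8.33 in the other 4. Y-linked genes also divided the arrays: their mean was 8.20 and 7.86 in knockout replicates 1 and 3, 4.33 in knockout replicate 2 and 4.32 to 4.48 in wild type. The groups thus differ in sex too, and with a sex term in the fit the genotype difference rests on 1 knockout array, replicate 2.

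Markers of cord cells and of other tissues were set against a background guide. Of the markers listed for dorsal excitatory neurons 9 of 9 measured lay above the background guide, for dorsal inhibitory neurons 11 of 12, for motor neurons 8 of 8, for neurons in general 8 of 8 and for radial glia 6 of 6. The guide is a log2 signal of 6.14, under which lie 95% of 1190 genes for olfactory and vomeronasal receptors. Of all 19938 genes, 14684 lay above it, so these counts alone do not single out a tissue. Of 10 measured markers of dorsal root ganglion neurons, 5 lay at or under it, among them the nociceptor sodium channels Scn10a and Scn11a and the capsaicin receptor Trpv1. The other 5 lay above it, by mean over the 6 arrays: Sncg at 11.21, the sodium channel Scn9a at 8.57, Piezo2 at 7.40, Runx1 at 7.16 and P2rx3 at 7.10. Markers of other tissues were also above it, namely 6 of 6 for Schwann cells, 7 of 8 for meninges and fibroblasts and 4 of 8 for skeletal muscle.

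The precursor genes differed widely in signal, from percentile 16.5 to 98.4 of all genes by mean signal. Npy and Sst gave the strongest signals, then Penk, Tac1, Grp and Cck, while Gal and Pdyn lay near the middle of all genes and Nts lay under the background guide. All levels in this text are log2 RMA signals, and probes differ in how strongly they bind, so the order below is one of array signals and not of transcript numbers. Npy averaged 12.18 ± 0.08 in knockout arrays and 12.15 ± 0.15 in wild-type arrays (SD, n = 3 each), at percentile 98.4 of all genes by mean signal. Sst followed at 11.94 ± 0.12 in knockout and 11.87 ± 0.23 in wild type (SD, n = 3 each), at percentile 97.4. The percentile was 89.1 for Penk, 85.5 for Tac1, 80.0 for Grp and 72.6 for Cck. It was 50.3 for Gal, 48.2 for Pdyn and 16.5 for Nts.

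This order was the same in every array for Npy, Sst, Penk, Tac1, Grp, Cck and Nts. Only Gal and Pdyn changed places: Gal gave the higher signal in 5 of 6 arrays, and Pdyn did so in knockout replicate 2. Between neighbours in the order, the ranges over the 6 arrays overlapped for Npy and Sst, Penk and Tac1, Tac1 and Grp, Grp and Cck, and Gal and Pdyn. They were apart between Sst and Penk, with a mean gap of 1.13 ± 0.27 log2 units (SD over 6 arrays), between Cck and Gal with a gap of 1.60 ± 0.20, and between Pdyn and Nts with a gap of 2.34 ± 0.52. The genes thus fall by signal into 4 sets that do not touch, namely Npy with Sst, the run from Penk to Cck, Gal with Pdyn, and Nts alone.

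**Figure D1:**
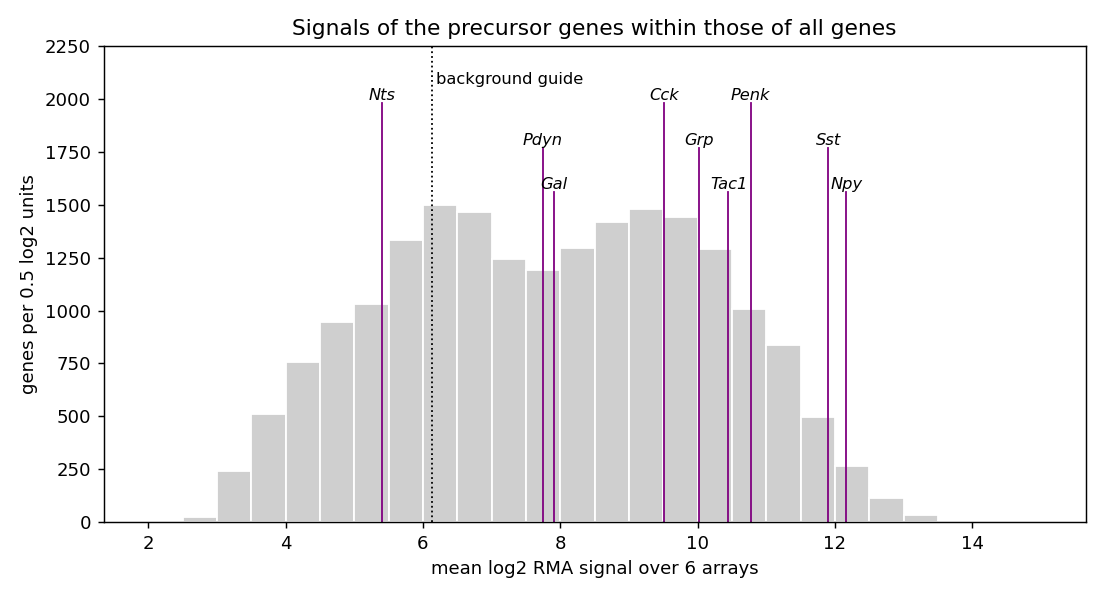
Histogram of the mean log2 RMA signal over 6 arrays for all 19938 genes (grey bars, genes per bin), with a purple line for each of the 9 precursor genes and a dotted line at the background guide of 6.14. Npy and Sst lie in the upper tail, Gal and Pdyn near the middle, and Nts lies left of the guide.

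Several peptide genes are textbook targets of the cAMP response element, the site bound by the factor CREB. RefSeq promoter windows of GRCm38.p6, 250 bases before to 50 bases after the start of transcription, were available for 7 measured genes, and Penk and Grp had no entry. Pdyn had 2 windows, of which the one nearest the 5′ end of the RefSeq gene was used, and none of the motifs below was found in the other. The half-site TGACG, searched on both strands as TGACG and CGTCA, was found in 5 of these 7 windows (Tac1, Sst, Gal, Nts and Cck), and it occurs in 20.8% of all 32851 windows in the table. The full palindrome TGACGTCA, which holds both half-site forms, was found in Sst only, and it occurs in 1.79% of all windows. The letters TATAAA, on both strands, were in none of the 7 windows and are in 13.6% of all. In Sst the palindrome began 48 bases before the start, in Cck the half-site began 47 bases and in Tac1 43 bases before it, and Tac1 had another 197 bases before it. The windows of these genes are shown because they share the half-site at nearly one distance, and that of Pdyn because it is the gene whose groups separated below. Capitals mark half-sites, and the window of Pdyn has none.
Sst, chr16:23890795-23891094, minus strand: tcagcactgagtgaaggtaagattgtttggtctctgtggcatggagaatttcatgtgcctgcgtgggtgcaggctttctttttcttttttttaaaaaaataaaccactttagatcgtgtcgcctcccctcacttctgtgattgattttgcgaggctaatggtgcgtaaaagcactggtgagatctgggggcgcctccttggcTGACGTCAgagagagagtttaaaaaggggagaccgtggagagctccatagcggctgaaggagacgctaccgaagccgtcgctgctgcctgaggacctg
Cck, chr9:121495645-121495944, minus strand: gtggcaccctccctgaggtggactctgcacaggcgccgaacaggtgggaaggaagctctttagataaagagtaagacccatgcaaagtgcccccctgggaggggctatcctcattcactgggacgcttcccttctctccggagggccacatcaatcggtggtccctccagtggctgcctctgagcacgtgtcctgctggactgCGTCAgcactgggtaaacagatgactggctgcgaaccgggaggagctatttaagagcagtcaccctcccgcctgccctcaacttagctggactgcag
Tac1, chr6:7554811-7555110, plus strand: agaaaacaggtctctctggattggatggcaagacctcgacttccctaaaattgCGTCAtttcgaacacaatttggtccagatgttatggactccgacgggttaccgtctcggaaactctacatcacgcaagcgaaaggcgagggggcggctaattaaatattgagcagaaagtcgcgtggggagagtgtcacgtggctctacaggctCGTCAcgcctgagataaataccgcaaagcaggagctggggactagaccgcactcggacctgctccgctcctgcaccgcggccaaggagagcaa
Pdyn, chr2:129699889-129700188, minus strand: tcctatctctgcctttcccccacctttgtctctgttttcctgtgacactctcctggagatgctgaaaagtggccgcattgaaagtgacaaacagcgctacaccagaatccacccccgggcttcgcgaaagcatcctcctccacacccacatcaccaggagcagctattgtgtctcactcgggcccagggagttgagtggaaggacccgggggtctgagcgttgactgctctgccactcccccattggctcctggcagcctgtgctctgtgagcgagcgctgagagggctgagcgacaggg
A match is a description of letters in the window, and the arrays measured no binding.

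Against wild type, Pdyn was the 1 precursor gene of 9 whose knockout arrays all lay on one side, and none of the 9 passed the test over all genes. Across all genes, 3.18% had every knockout array above every wild-type array, 2.64% had every one below, and 5.82% were separated in either direction. In limma with Benjamini-Hochberg adjustment 0 of 19938 genes passed an adjusted p of 0.05 (0%). An unadjusted p under 0.05 was reached by 1.70% of all genes, 0.933% being higher and 0.767% lower in knockout, and by Pdyn among the 9. The 9 log2 differences had a median of 0.03, with 6 genes higher and 3 lower in knockout (the signs of Npy, Sst and Cck turned on leaving out some single array), beside a median of -0.01 with 9261 higher and 10677 lower over all genes. With 3 arrays against 3, the exact permutation test cannot go below p = 0.1. The measurements are of bulk tissue, so fewer cells of a type and less RNA per cell cannot be told apart.

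Pdyn encodes prodynorphin, the source of the dynorphins, opioid peptides that act mainly on the kappa receptor. It read 7.85, 8.12 and 7.83 in knockout arrays, against 7.33, 7.58 and 7.75 in wild-type arrays. Every knockout array was above every wild-type array, though the lowest knockout array exceeded the highest wild-type array by little. The means were 7.93 ± 0.16 in knockout and 7.55 ± 0.21 in wild type (SD, n = 3 each), which puts knockout at 129.9% of wild type on the linear scale. The log2 difference of 0.38 had a 95% confidence interval from 0.09 to 0.67. The limma unadjusted p was 0.0171, at place 88 among all genes, the adjusted p was 1, and the exact two-sided permutation p was 0.1. In size, 53 of 19938 genes (0.266%) differed by as much or more. The difference was 0.27 without wild-type replicate 1, the lowest wild-type array (limma unadjusted p = 0.0519), and 0.28 without knockout replicate 2, the highest knockout array (limma unadjusted p = 0.0694). With a sex term it was 0.56 (limma unadjusted p = 0.0125), a value that rests on knockout replicate 2 alone, and knockout replicates 1 and 3, which carry the Y-linked signal, lay lower than that array.

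**Figure D2:**
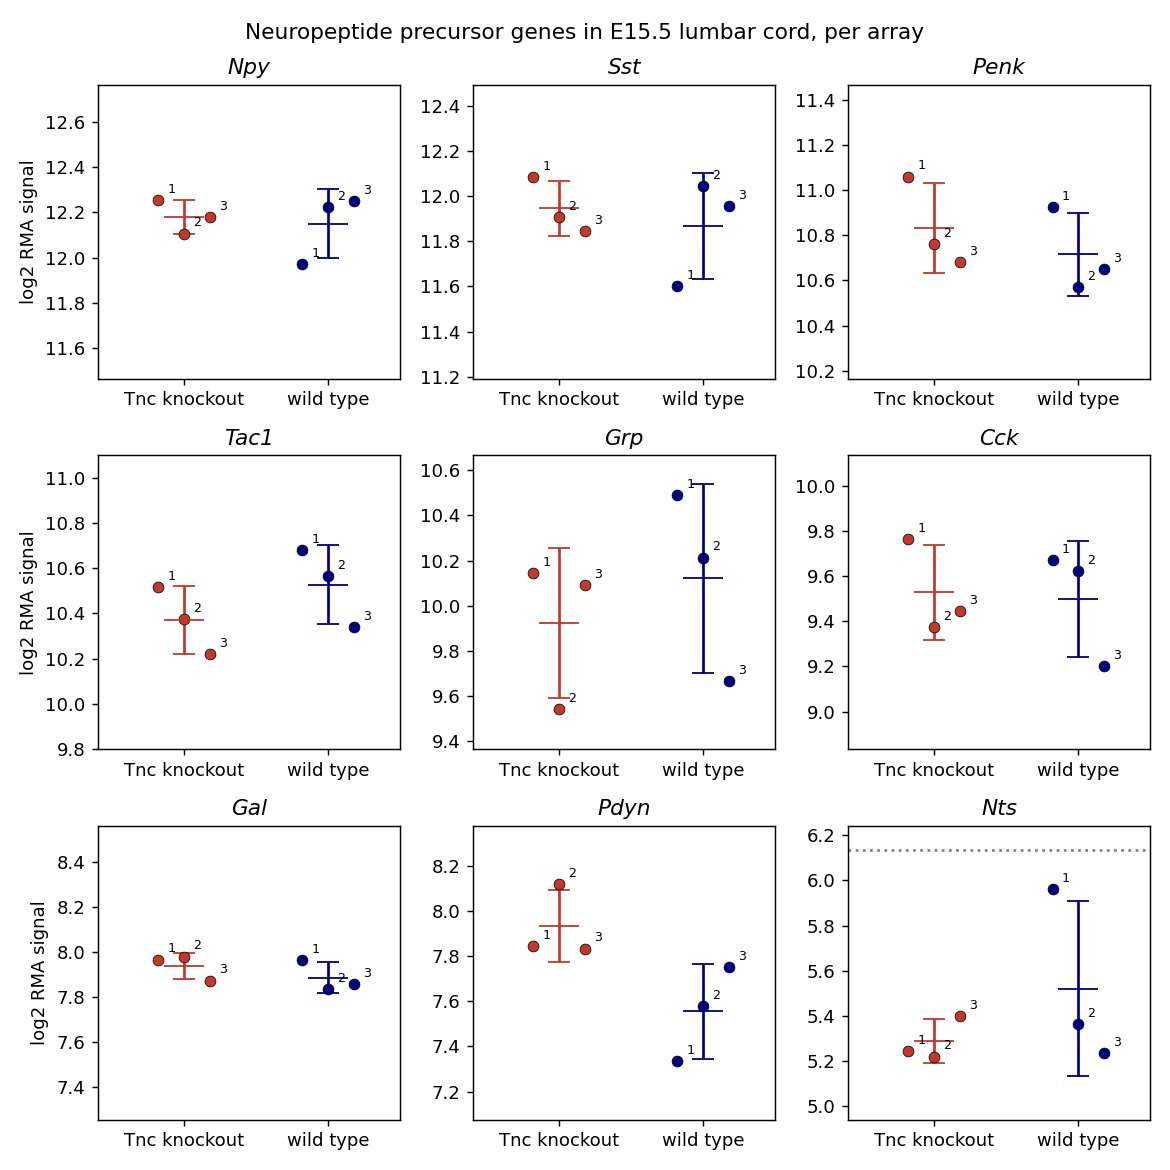
Log2 RMA signal of each precursor gene in the 3 Tnc knockout arrays (red, left) and the 3 wild-type arrays (blue, right), with replicate numbers beside the points, a bar at the mean and whiskers of 1 SD. Each panel spans the same number of log2 units, and the dotted line in the Nts panel is the background guide of 6.14. Only in the Pdyn panel do the knockout points all lie above the wild-type points.

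Penk encodes proenkephalin, the source of the enkephalins, which act on delta and mu opioid receptors, and it lies on chromosome 4, as Tnc does. It read 11.06, 10.76 and 10.68 in knockout arrays and 10.92, 10.57 and 10.65 in wild-type arrays. Knockout replicate 1 and wild-type replicate 1 were the highest arrays, and the groups overlapped. Penk differed by 0.12 log2 units, with an interval from -0.18 to 0.42, and it was 0.00 without knockout replicate 1, 0.19 without knockout replicate 3 and 0.22 when wild-type replicate 1 was left out.

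Npy, the precursor of neuropeptide Y, read 12.26, 12.11 and 12.18 in knockout arrays and 11.97, 12.22 and 12.25 in wild-type arrays. Wild-type replicate 1 was the lowest of the 6, and the other 5 lay close together. The log2 difference was 0.03 (interval from -0.19 to 0.25), and it changed sign to -0.06 without that array and to -0.01 without knockout replicate 1. The precursor of galanin, Gal, was the steadiest of the 9. Its readings were 7.97, 7.98 and 7.87 in knockout arrays and 7.96, 7.84 and 7.86 in wild-type arrays, a range of 0.14 over the 6 arrays, at percentile 9.20 of the ranges of all genes. The groups overlapped, with a log2 difference of 0.05 and an interval from -0.12 to 0.22.

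Sst encodes somatostatin, an inhibitory peptide that in the dorsal horn is used mainly by excitatory cells. Its arrays read 12.08, 11.91 and 11.85 in knockout and 11.60, 12.04 and 11.96 in wild type. As for Npy, wild-type replicate 1 was lowest and the remaining arrays overlapped. The log2 difference was 0.08 (interval from -0.21 to 0.37) with all arrays and -0.05 without wild-type replicate 1.

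Tac1 encodes substance P and neurokinin A, and it was lower on average in knockout, with overlapping groups. It read 10.52, 10.38 and 10.22 in knockout arrays and 10.68, 10.57 and 10.34 in wild-type arrays. Wild-type replicate 3 lay under 2 of the knockout arrays. The log2 difference was -0.16, with an interval from -0.42 to 0.11, and it was -0.08 when either wild-type replicate 1 or knockout replicate 3 was left out. It was -0.23 without knockout replicate 1 and -0.25 when wild-type replicate 3 was left out (limma unadjusted p = 0.0379, adjusted p = 0.717).

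Grp, the precursor of gastrin-releasing peptide, which transmits itch in the dorsal horn, varied most among the 9. The knockout arrays read 10.14, 9.54 and 10.09 and the wild-type arrays 10.49, 10.21 and 9.67, a range of 0.95, at percentile 99.3 of the ranges of all genes. Knockout replicate 2 and wild-type replicate 3 were low and the other 4 arrays high, so the variation lay within both groups. The log2 difference was -0.20 with an interval from -0.72 to 0.33. It was -0.01 when either knockout replicate 2 or wild-type replicate 1 was left out, but -0.43 without wild-type replicate 3. A sex term put it at -0.58, which again rests on knockout replicate 2 alone.

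Cck encodes cholecystokinin, found in excitatory cells of the deeper dorsal horn. It read 9.76, 9.37 and 9.44 in knockout arrays and 9.67, 9.62 and 9.20 in wild-type arrays. The groups overlapped, from the lowest knockout array at 9.37 to the highest wild-type array at 9.67. The log2 difference was 0.03, its interval ran from -0.32 to 0.38, and it was -0.09 without knockout replicate 1 and -0.12 without wild-type replicate 3. Nts, the precursor of neurotensin, read 5.24, 5.22 and 5.40 in knockout arrays and 5.96, 5.37 and 5.24 in wild-type arrays. Wild-type replicate 1 stood above the other 5 arrays, and all 6 readings stayed under the background guide. Knockout differed by -0.23 log2 units (interval from -0.64 to 0.17), and without that array it was -0.01. When wild-type replicate 3 was left out instead it was -0.38 (limma unadjusted p = 0.044, adjusted p = 0.718).

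**Figure D3:**
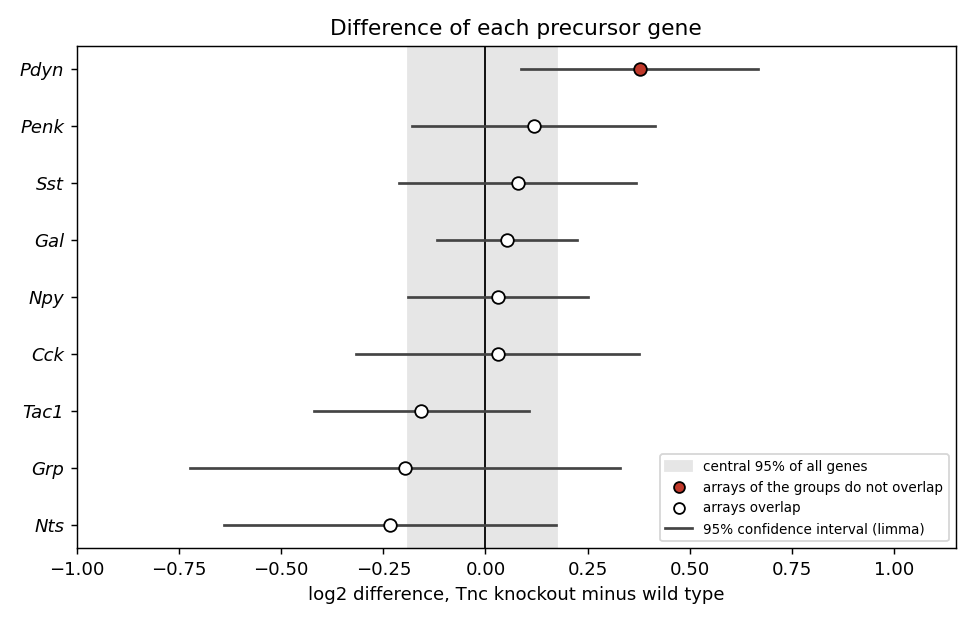
Log2 difference of each precursor gene, Tnc knockout minus wild type, with its 95% confidence interval from limma (n = 3 arrays each). Grey shading spans the central 95% of all genes, from -0.19 to 0.17, and the interval of Pdyn, from 0.09 to 0.67, is the one that does not reach 0.

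**Figure D4:**
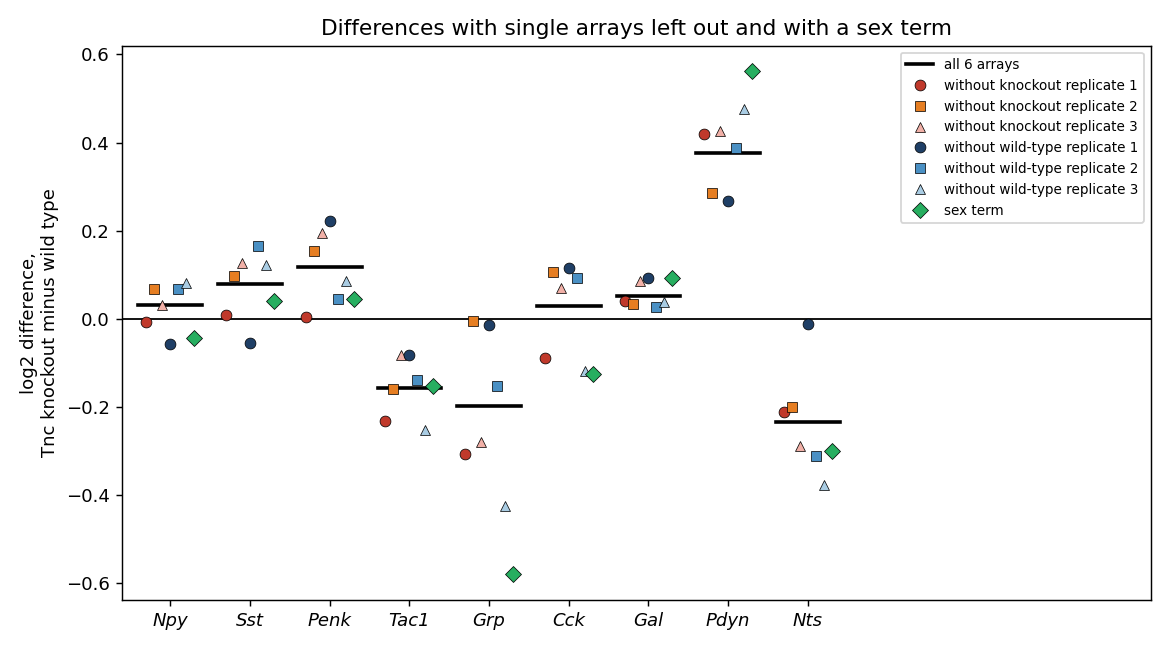
Log2 difference of each precursor gene, Tnc knockout minus wild type, with all 6 arrays (black bars), with each array left out in turn (coloured points) and with a sex term (green diamonds). Pdyn stays between 0.27 and 0.56, Grp runs from -0.58 to -0.01, and Npy, Sst and Cck lie on both sides of 0.

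The genes whose pattern over the 6 arrays came closest to a precursor were sought for the 3 with the widest ranges, by the root mean square difference between mean-centred log2 values. For Grp these were Syt10, a synaptotagmin, at 0.04, Haus1, of the augmin complex, at 0.11 and Galr1, a galanin receptor, at 0.12, where Grp itself had a root mean square of 0.32 about its mean. Closest to Pdyn, with 0.24 about its own mean, were Scn10a at 0.05, Lgi3, a secreted neuronal protein, at 0.07 and Kcnmb1, a subunit of calcium-activated potassium channels, at 0.08. Nts, with 0.26, was matched by Snord58b at 0.03, the cadherin Fat4 at 0.06 and the calcium channel Cacna1d at 0.08. Scn10a and Snord58b had mean signals under the background guide, at 5.69 and 3.30. These are the closest of 19938 genes over 6 arrays, given as a description.

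Receptor genes of these peptides gave signals from weak to strong. Of 26 receptor genes, 21 lay above the background guide, beside 14684 of all 19938 genes. Among the 26, 16 were higher and 10 lower in knockout, and 0 passed the test over all genes. Their median log2 difference was 0.03, and it ran from 0.01 without wild-type replicate 2 to 0.09 without wild-type replicate 3. The strongest signals were those of Sort1, a sorting receptor that binds neurotensin, at 10.96 ± 0.06 in knockout and 10.96 ± 0.05 in wild type, of Tacr1, the substance P receptor, at 10.06 ± 0.13 in knockout and 9.89 ± 0.03 in wild type, and of Sstr1, a somatostatin receptor, at 9.31 ± 0.03 in knockout and 9.13 ± 0.18 in wild type (SD, n = 3 each). By p the leading receptor was Npy2r, a presynaptic neuropeptide Y receptor in many neurons. It read 5.87, 5.87 and 5.89 in knockout arrays and 5.62, 5.69 and 5.72 in wild-type arrays, which did not overlap but all lay under the background guide. Its log2 difference was 0.20 (interval from 0.04 to 0.35, limma unadjusted p = 0.0207, adjusted p = 1). Tacr1 followed with 0.18 (limma unadjusted p = 0.0673, adjusted p = 1). Oprk1, the kappa receptor on which dynorphins act, read 6.01, 6.01 and 5.90 in knockout and 6.00, 5.71 and 5.65 in wild type, under the guide in every array. The opioid receptors of the enkephalins, Oprd1 and Oprm1, averaged 7.46 and 6.93 over the 6 arrays.

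The receptors Grpr and Galr1 were picked out after their values were seen, because wild-type arrays differed so much among themselves. Grpr, the receptor of gastrin-releasing peptide, read 8.44, 8.00 and 8.26 in knockout arrays and 8.59, 7.86 and 7.25 in wild-type arrays. Its wild-type arrays spanned 1.34 log2 units and its knockout arrays 0.44. Its log2 difference was 0.33, 0.68 without wild-type replicate 1 and 0.01 without wild-type replicate 3. Galr1 read 8.08, 7.76 and 8.06 in knockout arrays and 8.68, 8.27 and 7.60 in wild-type arrays, with a log2 difference of -0.22 that was 0.03 without wild-type replicate 1. Wild-type replicates 1 and 3 gave the extremes for both genes, as they did on the leading component of the arrays.

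Of the enzymes and vesicle proteins that turn precursors into peptides, all 16 measured genes lay above the background guide, beside 14684 of all 19938 genes. Among the 16, 11 were higher and 5 lower in knockout. Their log2 differences ran from -0.09 to 0.10 with a median of 0.02. None was separated between groups and 0 passed the test over all genes. The strongest were Pcsk1n, which encodes an inhibitor of a prohormone convertase, at 12.88 ± 0.08 in knockout and 12.79 ± 0.20 in wild type, carboxypeptidase E (Cpe) at 12.18 ± 0.02 in knockout and 12.15 ± 0.04 in wild type, and the vesicle priming factor Cadps at 11.50 ± 0.02 in knockout and 11.51 ± 0.18 in wild type (SD, n = 3 each). The smallest p values belonged to Pam, the amidating enzyme, at -0.09 (limma unadjusted p = 0.279), and chromogranin A (Chga) at 0.10 (limma unadjusted p = 0.291).

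Among 33 further neuropeptide precursor genes, 26 lay above the background guide, beside 14684 of all 19938 genes. Of the 33, 16 were higher and 17 lower in knockout, and the median log2 difference was -0.00. The strongest signals were those of Pnoc, the precursor of nociceptin, at 9.74 ± 0.04 in knockout and 9.71 ± 0.27 in wild type, of Adcyap1, that of PACAP, at 9.30 ± 0.10 in knockout and 9.30 ± 0.12 in wild type, and of Nppc, that of C-type natriuretic peptide, at 9.16 ± 0.19 in knockout and 9.19 ± 0.06 in wild type (SD, n = 3 each). Cartpt, the precursor of CART peptides, read 8.67, 8.57 and 8.53 in knockout arrays and 8.40, 8.38 and 8.51 in wild-type arrays. Its groups did not overlap, and its log2 difference was 0.16 (limma unadjusted p = 0.0795, adjusted p = 1). Adm, the precursor of adrenomedullin, differed by 0.15 with overlapping groups, a value that was 0.05 once wild-type replicate 2 and 0.29 once wild-type replicate 3 had been left out. Calcb, the gene for the beta form of calcitonin gene-related peptide, averaged 6.79 over the 6 arrays.

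Markers of the cells that make these peptides, and of others a dissected cord could hold, are given for the same contrast. Their part in the differences above was not tested. Each list bears the name of the cells it was drawn up to mark. Whether its genes are confined to those cells was not tested. Dorsal excitatory neuron genes were lower in knockout for 8 of 9, with a median log2 difference of -0.06 and summed linear signals of 11586 to 12911 in knockout arrays and 12148 to 13116 in wild-type arrays. Their leading gene by p was Lmx1b, a factor of dorsal excitatory neurons, at -0.18 with groups that did not overlap (limma unadjusted p = 0.0634, adjusted p = 1), and the list's median ran from -0.13 without knockout replicate 1 to -0.01 when wild-type replicate 2 was left out. It was -0.16 with the sex term and -0.20 with array weights. Dorsal inhibitory neuron genes were lower for 7 of 12, with a median of -0.04. Their sums were 15916 to 16245 in knockout and 15412 to 16174 in wild type. Gad1, a synthetic enzyme of GABA, stood at 0.14 and Slc32a1 at 0.08, both with groups that did not overlap. Both are among the 5 higher genes, and the 7 lower ones reached -0.11 for Prdm13, all with overlapping groups. Of motor neuron genes 8 of 8 were higher, with a median of 0.10 that was -0.02 without wild-type replicate 1, sums of 3810 to 4044 in knockout and 3172 to 4160 in wild type, and the choline transporter Slc5a7 at 0.10. Genes of neurons in general were higher for 7 of 8, with a median of 0.06. Their sums were 47795 to 49610 in knockout and 46758 to 48391 in wild type. Elavl4 stood at 0.11, and Snap25 at 0.06 with groups that did not overlap.

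Dorsal root ganglion genes were higher in knockout for 8 of 10, with a median of 0.07 and summed linear signals of 3319 to 3682 in knockout arrays and 3291 to 3589 in wild-type arrays. The median was 0.05 without knockout replicate 2 and 0.14 when wild-type replicate 3 was left out. It was 0.16 with array weights and 0.19 with the sex term, a value that rests on knockout replicate 2 alone. Scn10a led them at 0.29. It read 5.71, 6.05 and 5.76 in knockout arrays and 5.34, 5.56 and 5.75 in wild-type arrays, all under the background guide and overlapping. Schwann cell genes had a median of -0.00 (3 of 6 higher), sums of 2117 to 2199 in knockout and 1888 to 2397 in wild type, and Pou3f1 at 0.05. Meningeal and fibroblast genes had a median of -0.13 (2 of 8 higher), sums of 2245 to 2722 in knockout and 2294 to 2643 in wild type, and lumican (Lum), under the guide, at -0.30 with separated groups (limma unadjusted p = 0.00511, adjusted p = 1). Differences in that list ran from -0.46 for Slc6a13 to 0.38 for decorin (Dcn), both above the guide with overlapping groups. The median of that list was -0.07 without knockout replicate 1 and -0.02 with the sex term. For skeletal muscle genes the median was 0.00 (4 of 8 higher, 4 of 8 under the guide). Their sums were 857 to 902 in knockout and 781 to 939 in wild type. Acta1, with groups that did not overlap, stood at 0.15, or 0.04 without wild-type replicate 1. Radial glial genes had a median of 0.02 (5 of 6 higher), sums of 27584 to 29090 in knockout and 27208 to 29192 in wild type, and Nes at -0.06. The medians of the motor neuron, Schwann cell, muscle and radial glia lists turned their sign on leaving out some single array, as did that of the further precursors. None of these marker genes passed the test over all genes. Of all 19938 genes, 5.82% had groups that did not overlap, in one direction or the other.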

How the data were processed

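Total RNA of 6 lumbar cord samples was measured on whole-transcript arrays, 1 per sample. The deposited values are log2 signals that the authors computed by RMA, as the submitters' processing notes name it; version, build, batches and scan dates were not stated in the sources used here. RMA evens out the signal distribution between arrays, which removes any global shift. Of 35557 rows, 21789 had exactly 1 gene symbol in the platform annotation, 1621 had several and 12147 were not listed. Symbols were updated through RefSeq (GRCm38.p6), and the row with the highest mean stood for each of 19938 genes.

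Knockout and wild type were compared with limma 3.58.1 in R 4.3.3 (lmFit and eBayes, group as the only term, two-sided, Benjamini-Hochberg over all genes, threshold 0.05). The precursor genes and 12 further gene lists (150 of 155 symbols measured) were chosen with earlier results of these data known. Named were Tnc, the precursor genes, 1 gene of smallest p per cell type list, and the 3 nearest genes by pattern. Of receptors, processing genes and other precursors, the 2 of smallest p and the 3 of highest mean in each list were named. Oprk1, Oprd1, Oprm1, Grpr, Galr1, Calcb, Slc32a1, Snap25, Prdm13, Slc6a13 and Dcn were added after their values were seen. So were the ganglion markers named beside the background guide. No filter on dim genes was applied. The number of arrays limits the precision.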

Additional observations from a re-analysis of the deposited data

How the results depend on the processing

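No precursor gene passed an adjusted p of 0.05 under any alternative that tested it. The 14 alternatives were each array left out, the replicate number as a block, a filter on dim genes, an intensity trend and array weights. They also held renewed quantile normalization, median centring, the mean of a gene's rows and a sex term. The filter on dim genes removed Nts, which was tested under 13 alternatives. Over all genes the count ran from 0 to 4 with single arrays left out; the 4 genes, without knockout replicate 2, were Eif2s3y, Kdm5d, Uty and Xist. Pdyn stayed positive throughout, from 0.27 without wild-type replicate 1 to 0.56 with a sex term. Tnc ran from -0.84 to -0.49 with single arrays left out. With a sex term Tnc was -0.56, a value that rests on knockout replicate 2 alone. With single arrays left out Npy ran from -0.057 to 0.082, Sst from -0.054 to 0.17, Cck from -0.12 to 0.12, Galr1 from -0.51 to 0.029, Pou3f1 from -0.061 to 0.17 and Nes from -0.11 to 0.019, so that their signs are not settled, and the cause was not tested. With array weights Npy was -0.034, Sst -0.039 and Cck -0.11; with the sex term Npy was -0.044 and Cck -0.13. Of 168 list medians under alternatives 19 changed sign; with single arrays left out 5 of the 12 lists did so. The labels do not say whether samples that share a replicate number are paired. Deviations of same-numbered arrays correlated at 0.345, -0.075 and 0.449, and 4 of 6 arrays correlated best with their own number. Whether they are paired or share a batch was not tested. With the replicate number as a block the count of genes past the threshold was 0, and Pdyn differed by 0.38 (limma unadjusted p = 0.00534, adjusted p = 1); its adjusted p was 0.345 or more under all 14 alternatives. Nts, under the background guide, is limited by weak signal.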
